A study of Mus musculus with 12 samples.

Results

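Histone H3 is methylated at lysine 4 (H3K4) by a family of enzymes that mark promoters and enhancers of genes in use. In mammals 6 related methyltransferases, each with a SET catalytic domain, do this work in multiprotein complexes named after the yeast COMPASS complex. Each enzyme sits on the same core of WDR5, RBBP5 and ASH2L, which raises its activity, and MEN1 (menin) joins only the complexes of KMT2A and KMT2B. KMT2A, also called MLL1, is best known for keeping HOX genes active and for its fusions in leukaemia, and it has been reported to work with the clock factors CLOCK and BMAL1 in fibroblasts. The genes described here are the 6 methyltransferase genes Kmt2a, Kmt2b, Kmt2c, Kmt2d, Setd1a and Setd1b, the core subunit genes Wdr5, Rbbp5 and Ash2l, and Men1. They were chosen by gene symbol or older synonym, Mll1 being Kmt2a, and make 10 of the 19938 genes on the array that have a probe set with 1 gene symbol.

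RNA was measured on 12 Affymetrix arrays in fibroblasts from mouse embryos, the connective tissue cells that grow out in culture. Before harvest the cells were given 50% horse serum for 2 h, a shock that brings the circadian clocks of a culture into a common phase. The 4 groups were MLL1 KO cells at 18 h (CT18) and at 30 h (CT30) and wild type cells at 18 h and at 30 h, with 3 arrays each, and all of them were grown in 5% FBS and 5% NCS and received that shock. The labels name no allele, strain, embryo or line, and do not say whether a genotype is 1 line or whether each replicate was its own culture. Spread between arrays, on which all p-values rest, may therefore be only technical. The comparisons ask whether the transcripts of the enzyme family and its core differ between the genotypes at each time, and between the times in each genotype.

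Kmt2a has 1 probe set on the array, Kmt2d and Setd1b have 2 each, and the other 7 genes have 1. None of the 12 probe sets is shared with another gene. Values are array intensities on a linear scale, and log2 differences are of log2(intensity + 16). Where a gene has 2 probe sets, the brighter one was used and the other is given beside it. All 10 genes lay above the filter on dim genes (the 30th percentile of mean log2 level, an intensity of about 175). A gene was called when its limma p-value, adjusted by Benjamini-Hochberg over the 13956 genes tested, was under 0.05.

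Arrays of the same group were not all alike. Replicate 1 of the knockout-labelled 18 h group lay on the side of the 30 h arrays, relative to replicates 2 and 3, in 71.8% of all tested genes and in 7 of the 10 genes here. The mean of replicates 2 and 3 enters both sides of this comparison, which by itself raises such shares. No other array was placed this way, so these shares do not set replicate 1 apart. Replicate 2 of the wild-type 18 h group was the highest array of its group in 8 of the 10 genes and in 37.3% of all tested genes. Array medians over all probe sets ran from 273.3 to 311.8, the highest being in that wild-type array. Arrays of different genotypes correlated at 0.771 to 0.831 over the tested genes, against 0.984 to 0.996 within a group. The fibroblast label was set against 12 markers, whose summed intensity was 58720.0 to 63048 in knockout-labelled arrays and 60827 to 66655 in wild-type arrays. Of the 11 tested, 4 were higher and 5 lower in the knockout-labelled cells at 18 h, and 4 higher and 6 lower at 30 h. The sum hides large differences of single markers. At 18 h Pdgfra averaged 395.4 in the knockout-labelled cells and 3811 in wild type, and Col3a1 553.4 and 3260. Pdgfrb averaged 1055 and 3254, and Dcn went the other way, at 5766 and 422.6. Summed over 5 neural markers the intensity was 5852 to 6815 in knockout-labelled arrays and 745.6 to 1004 in wild-type arrays, and 3 of the 4 tested were higher at both times. Of the 8 tested epithelial, blood and pluripotency markers limma called none at either time (3 at 18 h and 0 at 30 h at an unadjusted p under 0.05). The 4 endothelial markers all fell below the filter on the mean of all arrays and were not tested. Their summed intensity was 493.1 to 710.5 in knockout-labelled arrays and 410.8 to 519.8 in wild-type arrays. At 18 h Kdr averaged 290.1 in the knockout-labelled cells and 89.6 in wild type, and Tek went the other way, at 103.5 and 126.9. The part that these differences play in the results below was not tested.

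Transcript starts show the kind of DNA these genes begin in. KMT2A, KMT2B and the CXXC1 subunit of the SETD1 complexes carry a CXXC zinc finger, which binds unmethylated CpG. RefSeq promoter windows of GRCm38.p6, from 250 bases before to 50 after the start, were at hand for 7 of the 10 genes and not for Kmt2b, Setd1b or Ash2l. Those of 4 genes are shown, the targeted gene, a gene lower in the knockout-labelled cells at both times, the gene with the largest rise, and the core subunit gene whose change with time differed between the genotypes, with each CpG in capitals. They lie at chr9:44881240-44881539 (Kmt2a, minus strand), chr15:98871156-98871455 (Kmt2d, minus strand), chr19:6334729-6335028 (Men1, plus strand, the outermost of 3 overlapping windows) and chr1:132477117-132477416 (Rbbp5, plus strand). The Kmt2d window lies inside the annotated gene, which on this strand begins at base 98874077, so it does not cover the outermost start.
Kmt2a: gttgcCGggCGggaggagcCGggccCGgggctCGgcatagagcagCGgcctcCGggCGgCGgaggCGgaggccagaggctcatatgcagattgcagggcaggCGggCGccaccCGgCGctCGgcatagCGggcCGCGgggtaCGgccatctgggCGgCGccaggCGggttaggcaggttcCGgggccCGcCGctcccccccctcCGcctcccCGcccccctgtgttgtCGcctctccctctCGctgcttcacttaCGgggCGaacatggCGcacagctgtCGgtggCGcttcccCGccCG
Kmt2d: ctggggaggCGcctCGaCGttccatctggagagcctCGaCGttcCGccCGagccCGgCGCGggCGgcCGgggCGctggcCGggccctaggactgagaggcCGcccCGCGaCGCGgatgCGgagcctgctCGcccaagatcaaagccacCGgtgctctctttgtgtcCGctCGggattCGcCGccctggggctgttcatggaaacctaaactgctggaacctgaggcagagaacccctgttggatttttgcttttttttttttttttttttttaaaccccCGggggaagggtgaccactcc
Men1: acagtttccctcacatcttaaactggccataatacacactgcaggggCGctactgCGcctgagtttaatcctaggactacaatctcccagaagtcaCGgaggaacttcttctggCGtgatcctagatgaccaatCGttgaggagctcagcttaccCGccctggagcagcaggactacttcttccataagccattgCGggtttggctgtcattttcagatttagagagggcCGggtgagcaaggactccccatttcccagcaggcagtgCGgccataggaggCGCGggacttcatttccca
Rbbp5: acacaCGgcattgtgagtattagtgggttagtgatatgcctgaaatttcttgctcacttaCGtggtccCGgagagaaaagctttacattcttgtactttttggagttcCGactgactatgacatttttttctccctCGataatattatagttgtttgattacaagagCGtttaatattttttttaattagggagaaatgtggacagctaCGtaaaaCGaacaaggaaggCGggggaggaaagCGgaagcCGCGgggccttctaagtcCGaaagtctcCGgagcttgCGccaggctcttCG

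Counted on one strand, since CG reads the same on both, the Kmt2a window holds 36 CpG and the Kmt2d window 27. Only 6.23% of all 32851 mouse windows of this length hold at least 36, and 15.5% hold at least 27. The Men1 window shown holds 11 CpG, a count met by 41.4% of windows. Its other 2 windows hold 16 each, as does the Rbbp5 window, a count met by 33.0%. Among windows not shown, Kmt2c holds 56 CpG (met by 0.195% of windows), Setd1a 35 (6.95%) and Wdr5 22 (23.1%). All 7 genes' windows hold more than the median of 7 CpG. The E-box CACGTG, the site read by CLOCK and BMAL1 and the same on both strands, is in none of the 9 windows of these 7 genes and in 7.15% of all windows. These counts describe the letters of the reference only.

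Kmt2a was the targeted gene, and its transcript was still measured in the cells labelled knockout. At 18 h its intensity was 2120.2, 2174 and 1959.7 in the knockout-labelled arrays, against 2265, 2824 and 2099.7 in wild type. These groups overlapped, and the log2 difference of -0.19 (95% interval -0.40 to 0.02) was not called (limma adjusted p = 0.108). The 30 h intensities were 1338, 1367 and 1584 in the knockout-labelled arrays, against 2129, 2155 and 2069 in wild type. Here the groups lay apart, and Kmt2a was lower by a log2 difference of -0.57 (interval -0.77 to -0.36, limma adjusted p = 0.000111), its mean being 0.675 of that in wild type. The 18 h value turns on wild-type arrays, being -0.07 (adjusted p = 0.565) without replicate 2 and -0.28 (adjusted p = 0.0234), a call, without replicate 3. No label says which part of the gene was removed or where the probes of this set lie, so these arrays do not check the genotype. In such bulk RNA, fewer cells with a transcript and less of it per cell cannot be told apart.

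**Figure D1:**
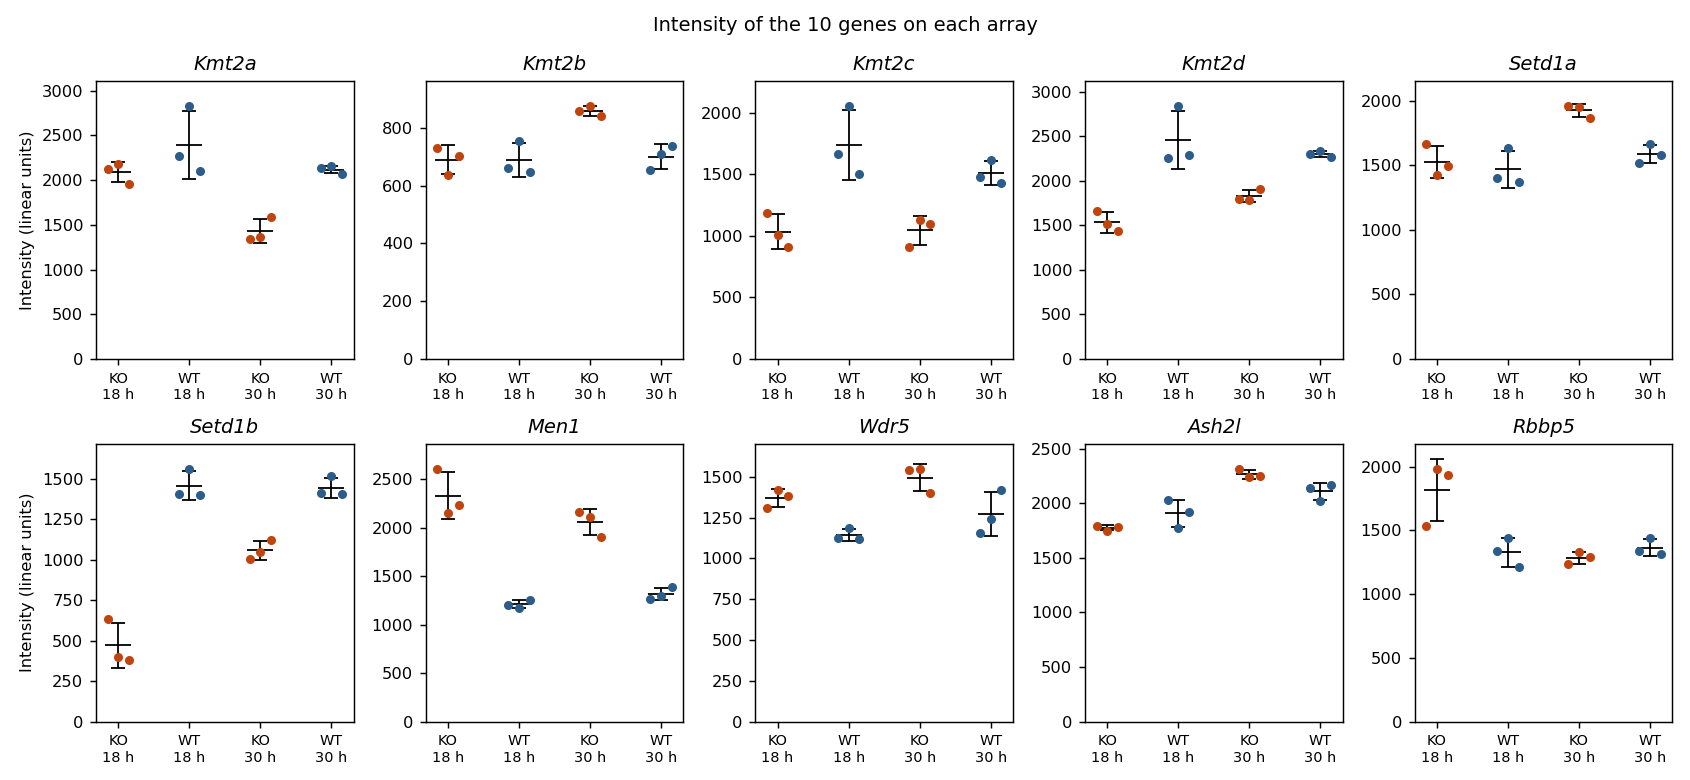
Intensity (linear units) of the 10 genes on each array, with knockout-labelled arrays (KO, orange) left of wild-type arrays (WT, blue) at each time; points are arrays in replicate order, and the bar and whiskers are the mean and SD of 3. Setd1b lay at 382.2 to 631.6 in knockout-labelled arrays at 18 h and at 1401 to 1559.6 in wild type, while Men1 was higher in every knockout-labelled array than in any wild-type array.

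Among the other methyltransferase genes the paralogue pairs differed in what they did. Kmt2c and Kmt2d, which encode the enzymes that mainly place monomethylation at enhancers, were both lower in the knockout-labelled cells at both times. Setd1b was also lower at both times, while its paralogue Setd1a was higher at 30 h. SETD1A and SETD1B are the enzymes closest to yeast Set1 and account for much of the trimethylation at promoters. Kmt2b, the closest relative of Kmt2a, was higher at 30 h.

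Kmt2b had 731.5, 635.0 and 701.8 in the knockout-labelled arrays at 18 h, against 661.3, 754.6 and 646.2 in wild type. The groups overlapped and the log2 difference was 0.01 (95% interval -0.18 to 0.19, limma adjusted p = 0.967). At 30 h the knockout-labelled arrays read 858.4, 874.1 and 839.6, against 654.4, 710.0 and 737.1 in wild type. All knockout-labelled arrays were above all wild-type arrays, and the log2 difference was 0.29 (interval 0.10 to 0.47, limma adjusted p = 0.0105). That call ended without wild-type 30 h replicate 1 (0.24, adjusted p = 0.0514).

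Kmt2c had 1187, 1005 and 908.5 in the knockout-labelled arrays at 18 h and 1664, 2053 and 1503 in the wild-type arrays. At 30 h its intensity was 909.4, 1128.5 and 1100.0 in the knockout-labelled arrays and 1480.2, 1617 and 1431 in wild type. The groups did not overlap at either time. The log2 difference was -0.74 ± 0.12 at 18 h (SE, n = 3 each, limma adjusted p = 4.76e-05) and -0.53 ± 0.12 at 30 h (SE, n = 3 each, limma adjusted p = 0.00138).

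Kmt2d, by its brighter probe set, had 1661, 1513 and 1432 in the knockout-labelled arrays at 18 h, against 2259.7, 2836 and 2286 in wild type. The 30 h arrays read 1797, 1782 and 1911 in the knockout-labelled arrays, against 2298, 2336 and 2264 in wild type. Knockout-labelled arrays were below wild-type arrays throughout. Its log2 difference was -0.67 ± 0.09 at 18 h (SE, n = 3 each, limma adjusted p = 3.92e-06) and -0.33 ± 0.09 at 30 h (SE, n = 3 each, limma adjusted p = 0.00423). On the dimmer probe set the 18 h values were 669.6, 518.6 and 607.4 in the knockout-labelled arrays and 1038, 1433 and 1007 in wild type, again with no overlap. There the log2 difference was -0.92 at 18 h (adjusted p over all probe sets = 1.14e-05). At 30 h it was -0.22 on that probe set (adjusted p = 0.218), from 788.8, 877.9 and 951.2 in the knockout-labelled arrays and 985.4, 1150.4 and 925.1 in wild type. The 30 h call of Kmt2d thus rests on 1 of its 2 probe sets.

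Setd1a had 1663, 1425 and 1496 in the knockout-labelled arrays at 18 h and 1404, 1635 and 1369.6 in wild type, which overlap (log2 difference 0.06, 95% interval -0.12 to 0.23, limma adjusted p = 0.588). At 30 h the arrays read 1958, 1955 and 1867 in the knockout-labelled cells and 1519, 1665 and 1582 in wild type. The groups were apart at 30 h, with a log2 difference of 0.28 (interval 0.10 to 0.45, limma adjusted p = 0.00983).

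Setd1b showed the largest difference of the 10 genes. At 18 h it had 631.6, 399.6 and 382.2 in the knockout-labelled arrays, against 1408, 1559.6 and 1401 in wild type, so the wild-type mean was 3.09 times the knockout-labelled mean. By 30 h the values were 1006, 1047 and 1123 in the knockout-labelled arrays, against 1413, 1514 and 1404 in wild type. The groups did not overlap at either time, and the gap was narrower at 30 h. The log2 difference was -1.63 ± 0.14 at 18 h (SE, n = 3 each, limma adjusted p = 1.93e-08) and -0.44 ± 0.14 at 30 h (SE, n = 3 each, limma adjusted p = 0.0113). Without knockout-labelled 18 h replicate 1, the array nearest to the 30 h values, the 18 h difference was -1.85 (adjusted p = 1.17e-11).

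The second Setd1b probe set read 471.2, 237.6 and 269.2 in the knockout-labelled arrays at 18 h, against 1114, 1322 and 1035 in wild type. At 30 h it read 824.4, 842.7 and 877.8 in the knockout-labelled arrays, against 1062, 1168 and 1082 in wild type. Both probe sets thus had the same order of groups, with no overlap at either time. Its log2 difference was -1.83 at 18 h (adjusted p over all probe sets = 5.26e-08) and -0.37 at 30 h, where it was not called (95% interval -0.73 to -0.02, adjusted p over all probe sets = 0.0944). As for Kmt2d, the 18 h call held on both probe sets and the 30 h call on 1.

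**Figure D2:**
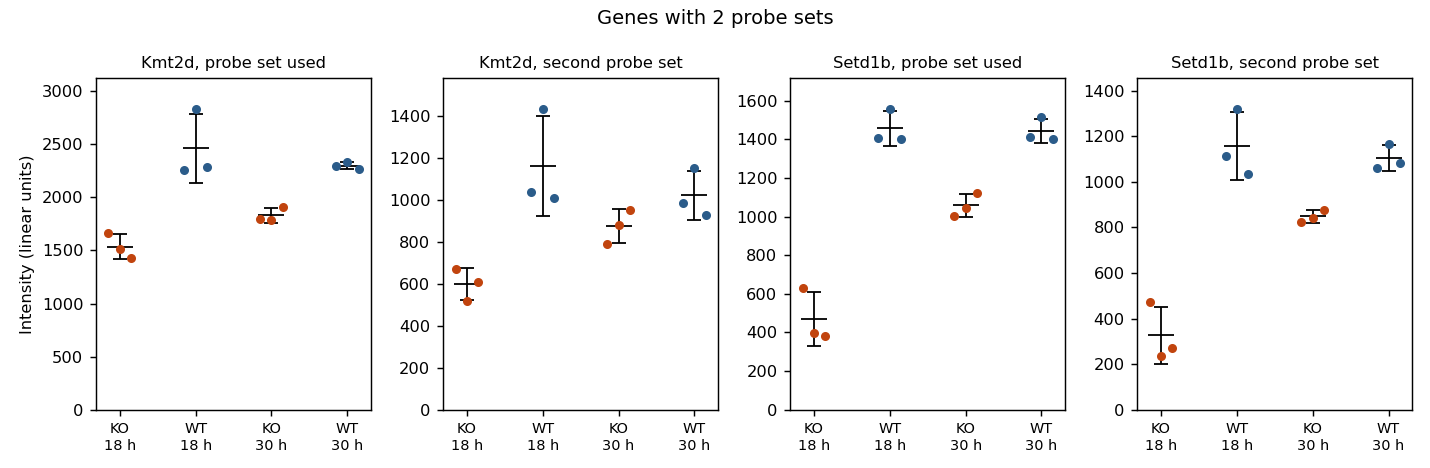
Intensity (linear units) on each array for both probe sets of Kmt2d and of Setd1b, knockout-labelled arrays (KO, orange) left of wild type (WT, blue) at each time; points are arrays and the bar and whiskers are the mean and SD of 3. On the second Setd1b probe set the knockout-labelled 18 h arrays lay at 237.6 to 471.2 and the wild-type 18 h arrays at 1035 to 1322.

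Men1 and Wdr5 were higher in the knockout-labelled cells at both times, and Rbbp5 at 18 h alone passed the test. Menin bridges KMT2A to chromatin and is encoded by a tumour suppressor gene of endocrine tissues. Men1 had 2605, 2147 and 2232 in the knockout-labelled arrays at 18 h, against 1204, 1171 and 1256 in wild type. Its 30 h intensities were 2160.2, 2108 and 1906 in the knockout-labelled arrays, against 1267, 1300.3 and 1384 in wild type. The lowest knockout-labelled array at either time was above the highest wild-type array. The log2 difference was 0.93 ± 0.08 at 18 h (SE, n = 3 each, limma adjusted p = 4.29e-08) and 0.64 ± 0.08 at 30 h (SE, n = 3 each, limma adjusted p = 5.28e-06), a mean 1.92 times that of wild type at 18 h and 1.56 times at 30 h.

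WDR5 is the WD-repeat protein that holds the enzymes to the core. Wdr5 had 1308, 1417 and 1383 in the knockout-labelled arrays at 18 h and 1124, 1185 and 1119 in wild type, with no overlap. At 30 h it had 1540.5, 1548 and 1399 in the knockout-labelled arrays and 1155, 1241 and 1420.2 in wild type, where 1 wild-type array exceeded the lowest knockout-labelled one. The log2 difference was 0.26 ± 0.08 at 18 h (SE, n = 3 each, limma adjusted p = 0.0132) and 0.23 ± 0.08 at 30 h (SE, n = 3 each, limma adjusted p = 0.0257). Both calls were fragile. The 18 h call ended without knockout-labelled 18 h replicate 2 (0.23, adjusted p = 0.0527). The 30 h call ended without wild-type 30 h replicate 1 (0.17, adjusted p = 0.132) or 2 (0.22, adjusted p = 0.0798) and without knockout-labelled 30 h replicate 1 (0.21, adjusted p = 0.0758) or 2 (0.21, adjusted p = 0.0932).

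RBBP5 and ASH2L form the pair that contacts the SET domain. Rbbp5 had 1537, 1981 and 1932 in the knockout-labelled arrays at 18 h and 1341, 1438 and 1212 in wild type, with no overlap. Its log2 difference at 18 h was 0.44 ± 0.10 (SE, n = 3 each, limma adjusted p = 0.000739). At 30 h it had 1233, 1327 and 1290.1 in the knockout-labelled arrays and 1340.4, 1438.5 and 1316 in wild type, which overlap (log2 difference -0.09, 95% interval -0.29 to 0.12, limma adjusted p = 0.474). Ash2l had 1795, 1748 and 1780.0 in the knockout-labelled arrays at 18 h and 2027, 1775 and 1915 in wild type, with a log2 difference of -0.10 (interval -0.24 to 0.04, limma adjusted p = 0.219). At 30 h it had 2313, 2235 and 2251 in the knockout-labelled arrays and 2137, 2021 and 2165 in wild type. These groups were apart by array, but the log2 difference of 0.10 (interval -0.04 to 0.25) was not called (limma adjusted p = 0.211). Ash2l was called higher at 30 h under quantile scaling (0.17, adjusted p = 0.0396) and lower at 18 h with array weights (-0.14, adjusted p = 0.0382).

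**Figure D3:**
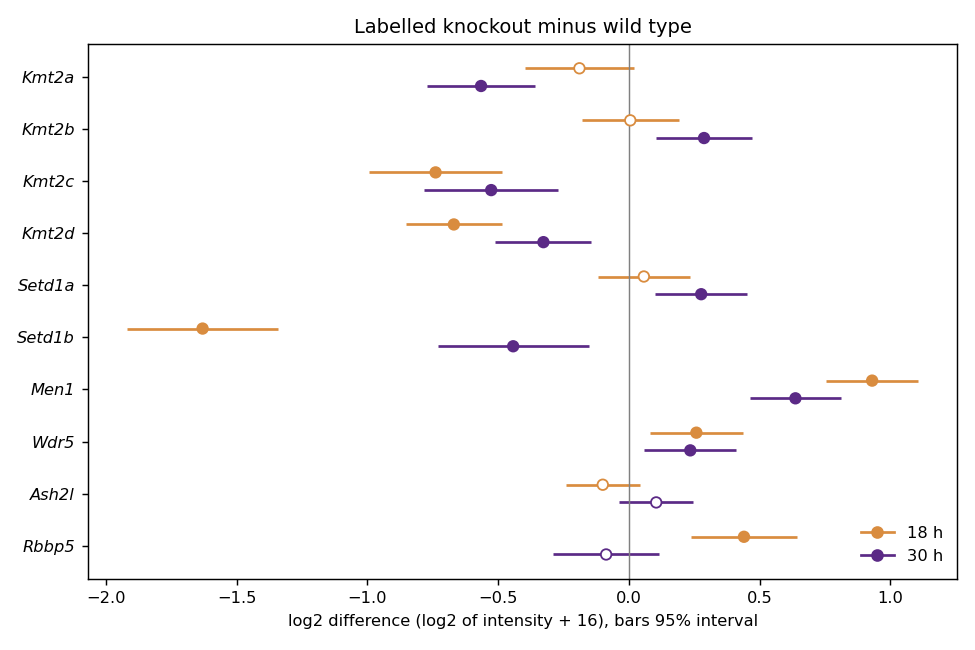
Log2 difference, knockout-labelled minus wild type, of each gene at 18 h (orange, upper) and 30 h (purple, lower), on the log2(intensity + 16) scale with 95% intervals; filled points have a limma adjusted p under 0.05. Of the genes with filled points at both times, Kmt2c, Kmt2d and Setd1b lay below 0 and Men1 and Wdr5 above 0. Kmt2a also lay below 0, and Kmt2b and Setd1a above 0, at both times, with filled points at 30 h only.

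By count, 3 of the 10 genes were higher and 3 lower at 18 h, where 26.3% of all tested genes were called higher and 33.8% lower (60.1% in either direction). At 30 h 4 were higher and 4 lower, against 24.3% higher and 28.6% lower of all genes (52.9% in either direction). The balance over all genes depends on the scaling, which is unstated for these files: of the 30 h calls 45.9% were higher, and 51.8% under quantile scaling, and of the 18 h calls 43.8% and 49.7%. All knockout-labelled arrays lay on one side of all wild-type arrays in 6 of the 10 genes at 18 h and in 8 at 30 h, against 63.1% and 61.5% of all genes. The median log2 difference of the 10 genes was -0.05 at 18 h and 0.01 at 30 h, where the median over all tested genes was -0.03 and 0.02. The median size of the difference without its sign was 0.35 for the 10 genes and 0.31 for all genes at 18 h, and 0.31 and 0.25 at 30 h. The 10 genes were thus called at 18 h in 60% of cases, near the share of all genes, and at 30 h in 80%. All 10 lie above the 50th percentile of mean, where a larger share of genes was called. With the filter set there, only genes at or above the 50th percentile of the 19938 were tested, against 13956 in the main fit. Of them 6953 were called at 18 h and 6178 at 30 h, against 8384 and 7382 in the main fit. The shares called over all tested genes, 60.1% and 52.9%, are thus lower than among genes in that brighter range. Setd1b alone was called with at least a 2-fold difference, at 18 h, as were 14.4% of all genes. Leaving out knockout-labelled 18 h replicate 1 or wild-type 18 h replicate 2 left the counts of higher and lower genes among the 10 as they were. The 30 h count was less stable, with 2 higher without wild-type 30 h replicate 1, 3 higher without wild-type 30 h replicate 2 or knockout-labelled 30 h replicate 1 or 2, and 5 higher under quantile scaling, and 4 lower each time. At 18 h 2 were higher without knockout-labelled 18 h replicate 2, and 4 were lower without wild-type 18 h replicate 3 or with array weights.

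The times were then compared within each genotype. In the knockout-labelled cells Setd1b, Setd1a, Kmt2b, Kmt2d and Ash2l rose between 18 h and 30 h and Kmt2a and Rbbp5 fell, while no gene of the 10 was called in wild type. Setd1b averaged 1058 ± 59.3 at 30 h and 471.1 ± 139 at 18 h in the knockout-labelled cells (SD, n = 3 each), a log2 difference of 1.18 (95% interval 0.89 to 1.46, limma adjusted p = 8.19e-06). The second probe set had a log2 difference of 1.40 (adjusted p over all probe sets = 1.19e-05). Without replicate 1 of 18 h the difference of Setd1b was 1.40 (adjusted p = 9.03e-09). Of all tested genes 1.91% were called with at least a 2-fold difference in this comparison. Setd1a averaged 1926 ± 51.7 at 30 h against 1528 ± 122 at 18 h (SD, n = 3 each), a log2 difference of 0.33 (limma adjusted p = 0.00421). Ash2l averaged 2266 ± 40.9 at 30 h against 1774 ± 24.4 at 18 h (SD, n = 3 each), a log2 difference of 0.35 (limma adjusted p = 0.000608), with every 30 h array above every 18 h array.

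Kmt2b rose by 0.31 on the log2 scale (limma adjusted p = 0.00931), a call that ended without knockout-labelled 18 h replicate 2 (0.25, adjusted p = 0.0596). Kmt2d rose by 0.25 (limma adjusted p = 0.0285). That call ended without knockout-labelled 18 h replicate 2 (0.24, adjusted p = 0.0814) or 3 (0.20, adjusted p = 0.118), without 30 h replicate 2 (0.27, adjusted p = 0.0512) or 3 (0.22, adjusted p = 0.0919), and under cyclic loess scaling (0.20, adjusted p = 0.0789). The dimmer Kmt2d probe set had a larger log2 difference of 0.54 (adjusted p over all probe sets = 0.00503). Kmt2a fell by 0.54 on the log2 scale (limma adjusted p = 0.000367), from means of 1429 ± 134 at 30 h against 2085 ± 112 at 18 h (SD, n = 3 each). Rbbp5 fell by 0.49 on the log2 scale (limma adjusted p = 0.000726), from means of 1284 ± 47.2 at 30 h against 1817 ± 243 at 18 h (SD, n = 3 each). Men1 had a difference of -0.17 (limma adjusted p = 0.112), which passed under cyclic loess scaling (-0.23, adjusted p = 0.0306). Wdr5 at 0.12 (95% interval -0.05 to 0.30) and Kmt2c at 0.02 (interval -0.24 to 0.27) were not called. In this comparison 20.9% of all tested genes were called higher and 18.4% lower at 30 h (39.3% in all), against 5 and 2 of the 10, and arrays of the times did not overlap in 7 of the 10 and in 46.2% of all genes.

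In wild type the differences between the times ran from -0.19 (Kmt2c) to 0.15 (Wdr5), and limma called 0 of the 10 genes, with 1 at an unadjusted p under 0.05 (Ash2l, 0.15). Of all tested genes 3.96% (553) were called, 2.41% higher and 1.55% lower at 30 h, a count that moved to between 158 and 1036 with 1 array left out, while the 10 genes stayed at 0 calls under every alternative run. The share of these calls that were higher was 60.9%, and 50.1% under cyclic loess scaling. Setd1b averaged 1444 ± 61.1 at 30 h against 1456 ± 89.5 at 18 h (SD, n = 3 each), a log2 difference of -0.01 (95% interval -0.30 to 0.28). Kmt2a averaged 2118 ± 44.2 at 30 h against 2396 ± 379 at 18 h (SD, n = 3 each), a log2 difference of -0.17 (interval -0.37 to 0.04). Men1 was the only one of the 10 whose wild-type arrays of the times did not overlap, as in 25.6% of all genes, with a log2 difference of 0.12 (limma adjusted p = 0.495).

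**Figure D4:**
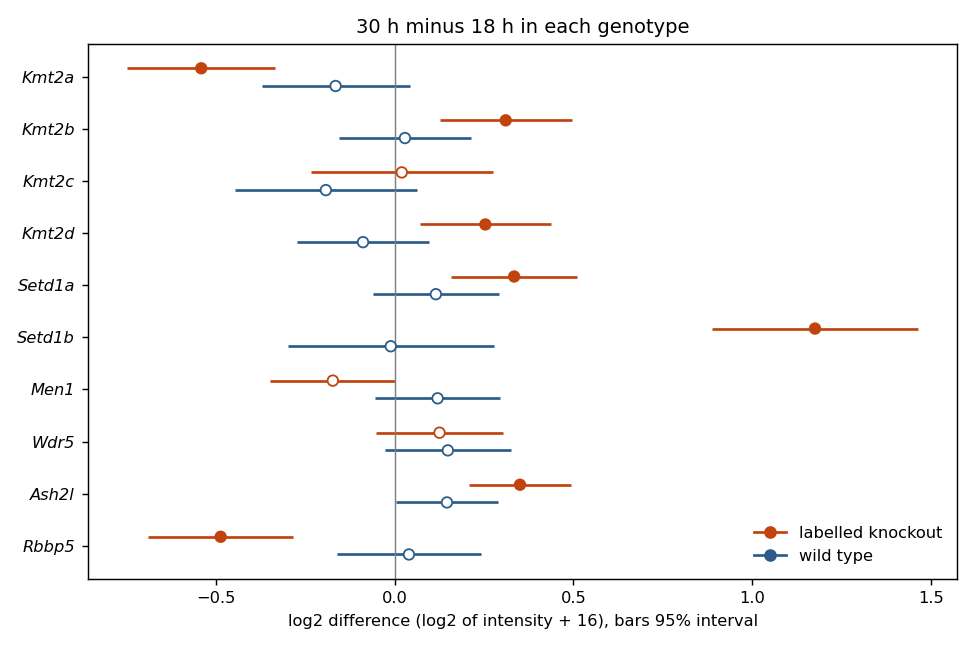
Log2 difference, 30 h minus 18 h, of each gene in the knockout-labelled cells (orange, upper) and in wild type (blue, lower), on the log2(intensity + 16) scale with 95% intervals; filled points have a limma adjusted p under 0.05. Setd1b stood at 1.18 in the knockout-labelled cells and at -0.01 in wild type, and none of the wild-type points is filled.

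Whether a time difference itself depended on genotype was tested as the difference of the time effects, knockout-labelled minus wild type. It was called for Setd1b (1.19, 95% interval 0.78 to 1.59, limma adjusted p = 0.000736) and for Rbbp5 (-0.53, interval -0.81 to -0.24, limma adjusted p = 0.0119). Of all tested genes 10.2% were called higher and 10.1% lower (20.3% in all), and 1.74% were called and at least 2-fold, as Setd1b was. Without knockout-labelled 18 h replicate 1 the values were 1.41 for Setd1b (adjusted p = 5.85e-07) and -0.64 for Rbbp5 (adjusted p = 0.000402), and without wild-type 18 h replicate 2 they were 1.14 (adjusted p = 0.00261) and -0.58 (adjusted p = 0.0115). The second Setd1b probe set gave 1.46 (adjusted p over all probe sets = 0.000911).

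Kmt2a and Kmt2d stood near the threshold. The Kmt2a value was -0.38 (interval -0.67 to -0.08, limma adjusted p = 0.0653). Leaving out wild-type 18 h replicate 2 made it a call (-0.50, adjusted p = 0.00977), as did the fits without knockout-labelled 30 h replicate 3 (-0.45, adjusted p = 0.0377), with array medians set equal (-0.42, adjusted p = 0.0347) and with array weights (-0.47, adjusted p = 0.000971). The Kmt2d value was 0.34 (interval 0.08 to 0.60, limma adjusted p = 0.0593). Leaving out wild-type 18 h replicate 1 made it a call (0.40, adjusted p = 0.0444), as did the fits without replicate 3 (0.39, adjusted p = 0.0380), without knockout-labelled 18 h replicate 1 (0.40, adjusted p = 0.0188), with quantile scaling (0.35, adjusted p = 0.0448), with the filter at the 50th percentile (0.34, adjusted p = 0.0498), with array weights (0.32, adjusted p = 0.00768) and with the mean of its 2 probe sets (0.52, adjusted p = 0.0211). The dimmer Kmt2d probe set alone gave 0.70 (adjusted p over all probe sets = 0.0182). Kmt2b at 0.28, Men1 at -0.29, Setd1a at 0.22, Kmt2c at 0.21, Ash2l at 0.20 and Wdr5 at -0.02 were not called, though array weights gave calls for Kmt2b (0.38), Setd1a (0.29) and Ash2l (0.25).

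Across the 12 arrays, which share 4 group means, the log2 values of Setd1a and Kmt2b had the highest Pearson correlation among pairs of the 10 genes (r = 0.959). Kmt2c and Kmt2d correlated at r = 0.925, Kmt2d and Setd1b at r = 0.916 and Kmt2d and Men1 at r = -0.913. The 5 tested genes whose log2 values followed Kmt2a most closely over the 12 arrays were Utrn (r = 0.987), the Notch receptor gene Notch1 (0.971), the RNA-binding protein gene Cpeb4 (0.964), Pcnx (0.964) and the mTOR complex gene Rictor (0.963). Utrn, which encodes the dystrophin relative utrophin, averaged 3771 in the knockout-labelled cells and 4425 in wild type at 18 h, and 2688 in the knockout-labelled cells and 3956 in wild type at 30 h.

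The other subunits of these complexes were counted by role, as lists of named genes. Of the 4 core subunit genes, which add the dimerisation subunit Dpy30 to the 3 above, 2 were higher and 0 lower in the knockout-labelled cells at 18 h, and 1 was higher and 1 lower at 30 h. The lower one was Dpy30 (-0.30, limma adjusted p = 0.0171), named here after its value was seen. Its call was lost under quantile scaling (-0.22) and without wild-type 30 h replicate 3 (-0.26) or knockout-labelled 30 h replicate 2 (-0.28) or 3 (-0.25). Of 6 partners of KMT2A and KMT2B 1 was higher and 3 lower at 18 h, and 1 higher and 1 lower at 30 h, with medians of -0.16 and -0.01. Men1 was the higher one, and the HCF family gene Hcfc2 was lower, at 2040.4 ± 133 in the knockout-labelled cells and 2909.7 ± 461 in wild type at 18 h (SD, n = 3 each, log2 difference -0.50, limma adjusted p = 0.000428) and at -0.79 at 30 h (limma adjusted p = 5.05e-06). Of 4 partners of KMT2C and KMT2D 0 were higher and 2 lower at 18 h, and 1 was higher and 1 lower at 30 h. The coactivator gene Ncoa6 was lower at 18 h (-0.39, limma adjusted p = 0.00141) and stood at -0.04 at 30 h. The H3K27 demethylase gene Kdm6a was at -0.04 at 18 h and was higher at 30 h (0.37, limma adjusted p = 0.000826). Paxip1 was at -0.13 at 18 h and lower at 30 h (-0.20, limma adjusted p = 0.0416), a call lost without wild-type 30 h replicate 2 (-0.21) or 3 (-0.15), knockout-labelled 18 h replicate 2 (-0.20) or knockout-labelled 30 h replicate 1 (-0.16) or 3 (-0.19), and under quantile (-0.14) and cyclic loess scaling (-0.17). The Paxip1 call was also lost with array weights (-0.13), and with no filter, every probe set tested or no intensity trend (-0.20 each). Of 4 partners of SETD1A and SETD1B limma called 0 at 18 h (1 at an unadjusted p under 0.05), and 1 was higher at 30 h. That gene was Wdr82 (0.25, limma adjusted p = 0.00318), which at 18 h stood at -0.15 (limma adjusted p = 0.050004), just over the threshold. Its difference of the time effects was called (0.40, limma adjusted p = 0.00553). Under quantile scaling 1 partner was higher at 18 h and 3 at 30 h. With the filter at the 50th percentile, or without knockout-labelled 18 h replicate 1, 1 was lower at 18 h.

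Other genes that write, remove and read H3K4 methylation moved in both directions. Of 6 tested other SET domain genes 1 was higher and 3 lower at 18 h, and 0 higher and 3 lower at 30 h. Kmt2e, a relative of the family whose SET domain is thought to be inactive, had 1992 ± 550.3 in the knockout-labelled cells and 5402 ± 663 in wild type at 18 h (SD, n = 3 each, log2 difference -1.46, limma adjusted p = 1.16e-07). At 30 h Kmt2e had 3119 ± 291 in the knockout-labelled cells and 4792 ± 349 in wild type (SD, n = 3 each, log2 difference -0.62, limma adjusted p = 0.00131). Smyd3, a methyltransferase of the SMYD group, was higher at 18 h (0.88, limma adjusted p = 9.82e-06) and stood at -0.06 at 30 h, and Prdm9, known from meiosis and dim here, had values of -0.46 and -0.61 (limma adjusted p = 0.00542 and 0.000719).

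Of 5 H3K4 demethylase genes 1 was higher and 1 lower at 18 h, and 2 were higher and 0 lower at 30 h. Kdm5b was lower at 18 h (-0.59, limma adjusted p = 0.000143) and stood at 0.10 at 30 h. Kdm1a, which encodes LSD1, was higher at 30 h (0.56, limma adjusted p = 6.40e-06) and at 18 h (0.21, limma adjusted p = 0.0242). Its 18 h call was lost without wild-type 18 h replicate 3 (0.14) or knockout-labelled 18 h replicate 1 (0.16). It was also lost with array weights (0.12) and with only the arrays of the groups compared (0.21). Its relative Kdm1b stood at 0.02 at 18 h and was higher at 30 h (0.33, limma adjusted p = 0.00368). Of 16 genes of H3K4 methylation readers 5 were higher and 7 lower at 18 h, and 3 higher and 4 lower at 30 h. Quantile scaling turned that balance, with 7 higher and 6 lower at 18 h and 5 higher and 2 lower at 30 h, and so did cyclic loess scaling, with 7 higher and 6 lower at 18 h and 4 higher and 3 lower at 30 h. The inhibitor of growth genes Ing1 and Ing2 were higher at 18 h (0.68 and 0.46) and at 30 h (0.89 and 0.56, limma adjusted p of 0.000237 or less in all 4 cases). Their relative Ing4 was lower at both times (-0.63 and -0.75, limma adjusted p = 4.36e-06 and 7.15e-07). Ing3 was higher at 18 h only (0.48, limma adjusted p = 0.00110), and Ing5 was called at neither time. The PHD finger gene Phf2 was lower at both times (-0.78 and -0.67, limma adjusted p = 5.11e-08 and 4.32e-07). Dido1 was lower at 18 h (-1.15, limma adjusted p = 7.07e-07) and was at -0.24 at 30 h (limma adjusted p = 0.124, and 0.0256 without knockout-labelled 18 h replicate 1, which enters only the estimate of spread there).

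Ubiquitination of histone H2B, with the PAF1 complex, precedes H3K4 trimethylation in yeast and mammals. Of 9 genes of this step 3 were higher and 2 lower at 18 h, and 6 higher and 1 lower at 30 h, with medians of 0.10 and 0.25. Rnf20, the H2B ubiquitin ligase, was higher at both times (0.48 and 0.45, limma adjusted p = 0.000114 and 0.000277). Ctr9 was higher at 30 h (0.66, limma adjusted p = 4.56e-06), and at 18 h its value of 0.21 (limma adjusted p = 0.0450) was no longer called when any of 9 of the 12 arrays was left out, with values of 0.12 to 0.22. Array weights (0.11), no filter, every probe set tested and only the arrays of the groups compared (0.21 each) also ended the 18 h call. Rtf1 was lower at both times (-0.57 and -0.24, limma adjusted p = 3.40e-06 and 0.0108), the 30 h call being lost without wild-type 30 h replicate 2 (-0.20) and under quantile scaling (-0.16). Ube2a was lower at 18 h (-0.42, limma adjusted p = 0.00105) and at -0.18 at 30 h (limma adjusted p = 0.126, and 0.0490 without knockout-labelled 18 h replicate 1). Of 10 genes of MLL fusion partners and DOT1L 4 were higher and 4 lower at 18 h, and 4 higher and 3 lower at 30 h. Mllt1, which encodes the acetyl-lysine reader ENL, had 2764.6 ± 109 in the knockout-labelled cells and 1340.0 ± 172 in wild type at 18 h (SD, n = 3 each, log2 difference 1.04, limma adjusted p = 1.74e-08). Mllt1 stood at 0.85 at 30 h, and the junction gene Afdn at 1.12 and 0.74 at the 2 times (limma adjusted p of 4.26e-07 or less). Aff1, a scaffold of the super elongation complex, was lower at both times (-0.57 and -0.74, limma adjusted p of 1.29e-06 or less), and the elongation factor gene Ell was at -0.11 at 18 h and lower at 30 h (-0.40, limma adjusted p = 0.000907). Counts of the partners of KMT2A and KMT2B ranged over the alternatives from 1 to 3 lower at 18 h, and those of the H2B list from 4 to 7 higher at 30 h. All these counts stand beside calls in 60.1% of all tested genes at 18 h (26.3% higher, 33.8% lower) and 52.9% at 30 h (24.3% higher, 28.6% lower).

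**Figure D5:**
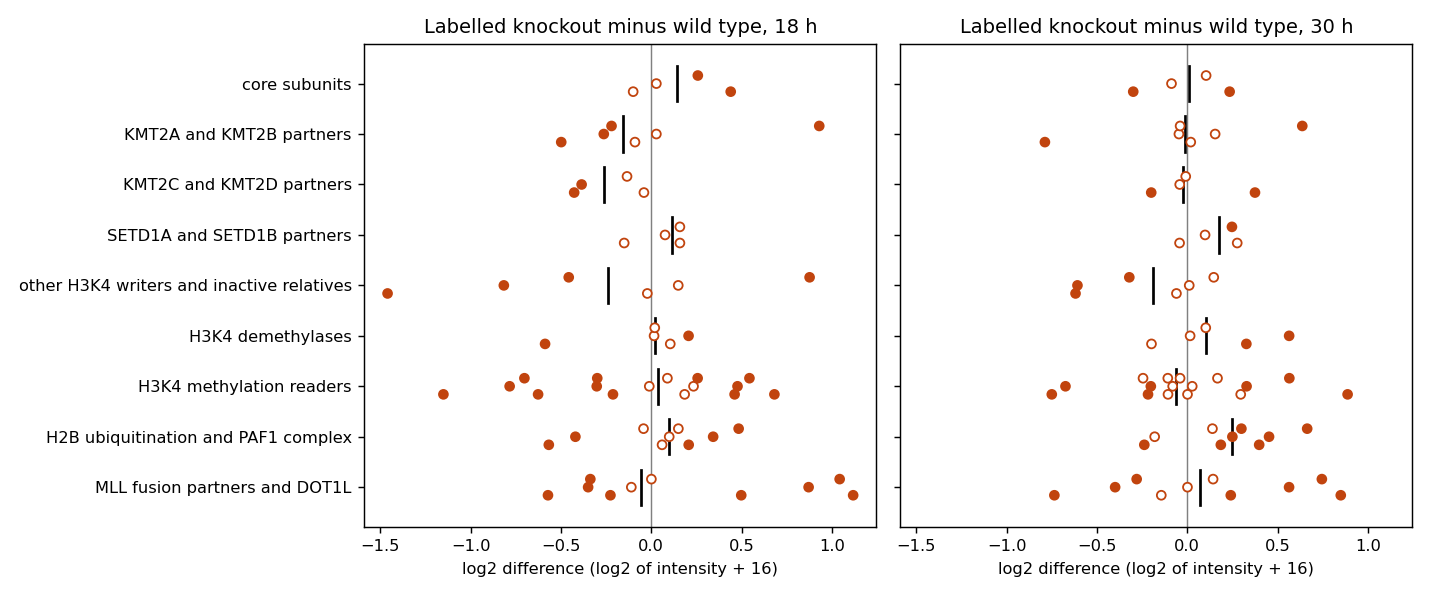
Log2 difference, knockout-labelled minus wild type, of each tested gene of the 9 lists at 18 h (left) and 30 h (right), on the log2(intensity + 16) scale; filled points have a limma adjusted p under 0.05, and the black bar is the list's median. Points of every list but that of the SETD1A and SETD1B partners are filled at 18 h, and Kmt2e lies lowest at -1.46.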

How the data were processed

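Total RNA of 12 samples was hybridised to Affymetrix arrays, and for each probe set the authors deposited 1 linear intensity per array. The submitters' processing notes name Affymetrix Expression Console 1.1 and PLIER 2.0. How arrays were scaled to each other is not stated there. Of 35557 probe sets, 21789 carry a single symbol in the platform's annotation, 1621 carry more than 1 and 12147 carry none. Of the single-symbol ones, 21698 were matched by Entrez number to RefSeq genes of GRCm38.p6. Groups came from the sample titles.

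The brightest probe set on average stood for its gene, as log2(intensity + 16), a scale that understates changes of dim genes. Of 19938 genes the 13956 at or above the 30th percentile of mean were tested in 1 limma 3.58.1 fit (R 4.3.3, lmFit, eBayes with an intensity trend, 8 residual and 7.98 prior degrees of freedom) of 4 group means over all 12 arrays, with Benjamini-Hochberg adjustment over all genes. The code of the fit was run on simulated data with few changed genes and independent noise. These data differ from that setting, so the run does not test the design. The number of arrays limits the precision. The 10 genes, the lists and the alternatives were chosen with earlier results of these data known. Named in the text are the 10 genes and the 5 genes closest to Kmt2a, with predicted genes passed over. For each list, up to 2 largest rises and 2 largest falls are named among other genes called in the comparison averaged over both times. Dpy30, Wdr82, Ing3, Ing4, Ing5, the fibroblast markers Pdgfra, Col3a1, Pdgfrb and Dcn and the endothelial markers Kdr and Tek were added after their values were seen. The alternatives were offsets, filters, scalings, variance models, weights, probe set rules, a block for replicate number, and leaving out single arrays.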

Additional observations from a re-analysis of the deposited data

Results flagged for a closer look

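The time effect of 2 of the 10 genes differed between the genotypes by limma's test of the difference itself, near the 20.3% called of all tested genes. Knockout-labelled arrays of the 2 times did not overlap in 46.2% of all tested genes. For Setd1b the knockout-labelled minus wild-type difference of the time effects was 1.19 on the log2 scale (limma adjusted p = 0.000736), with all 3 knockout-labelled 30 h arrays above all 3 of 18 h and wild-type arrays of the times overlapping. For Rbbp5 it was -0.53 (limma adjusted p = 0.0119), with all 3 knockout-labelled 30 h arrays below all 3 of 18 h and wild-type arrays of the times overlapping. In both genes knockout-labelled 18 h replicate 1 was the array of its group nearest to the 30 h values, 0.479 of the way from the other 2 replicates to the 30 h mean for Setd1b and 0.572 for Rbbp5. Both differences were called when any one of the 12 arrays was left out, at 1.06 to 1.41 for Setd1b and -0.64 to -0.46 for Rbbp5.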

How the results depend on the processing

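The count of called genes for 30 h against 18 h in wild type was the least stable, at 553, and 1742 with array weights, 997 with only the arrays of the groups compared, and 158 to 1036 with 1 array left out (158 to 911 without any 1 of the 6 wild-type arrays, 1036 without knockout-labelled 18 h replicate 1). Array weights, whose estimate stopped before limma's tolerance, also gave 8722 against 5484 for time in the knockout-labelled cells and 5844 against 2838 for the difference of the time effects. All other counts were within 1.5 times. For the 10 genes in the 6 comparisons, 1478 of the alternative values kept direction and side of the threshold, 33 lost a call, 18 gained one, 31 uncalled values changed sign and none was called in the opposite direction. Whether replicate numbers pair the arrays is not stated, and deviations from means of 3 arrays cannot decide it. Of 12 same-numbered pairs, 3 had deviations correlated over 0.1 (range -0.456 to 0.454) and 3 correlated best with their own number. The highest value was between the wild-type replicates 2 of the 2 times. With the replicate number as a block the counts were 8262, 7251 and 8986 for the genotypes at 18 h, at 30 h and over both times, and 485, 5375 and 2725 for time in wild type, time in the knockout-labelled cells and the difference of the time effects, and the block ended 1 call of the 10 genes, that of Kmt2b over both times (0.15, adjusted p = 0.0667). The 10 genes all lie above the 50th percentile of mean by the probe set used. The second Setd1b probe set was dim in knockout-labelled 18 h replicates 2 and 3, at 237.6 and 269.2 against array medians of 287.3 and 285.2. Its SD in that group was 38.9% of the mean, so the size of its differences from that group is less sure.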
